A study of Mus musculus with 14 samples.

Results

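The oogenesin (Oog) and Pramel genes were followed through the 2-cell stage of the mouse embryo. Every gene whose symbol in the count table begins with Oog or Pramel and a number was taken, which gave 52 of the 56923 genes listed, 4 oogenesins and 48 Pramel genes. A further 14 genes that a newer annotation names Pramel stand in the table under other names and were not taken. RNA-seq counts came from 14 libraries of 7 conditions, 2 libraries each, and each library was made from 5 pooled embryos of ICR mice, an outbred stock. Early 2-cell embryos were cultured as G&N or G&N-L, and late 2-cell embryos as G&N, G&N-L or G&N-L + Lac-CoA, or carried WT or H3K18R histone. G&N medium held Gne140, an inhibitor of both lactate dehydrogenases, and NMN, a precursor of NAD+, so that lactate and pyruvate could not be interconverted by that enzyme. G&N-L was the same medium without lactate, and Lac-CoA, the lactyl donor for histone lactylation, was injected into zygotes kept in G&N-L in the fifth condition. In the H3K18R embryos an H3 whose lysine 18 is replaced by arginine was expressed from mRNA injected into zygotes, and the study's methods describe WT embryos as given mRNA of the unchanged H3. Neither group is labelled with the inhibitor or NMN. Titles and treatment labels of the early libraries differ: G+N samples are labelled with Gne140 only, and G+N-L samples with Gne140 and NMN. The groups follow the titles. The H3K18R samples stand under K18A in the column headers. No source says whether the replicates came from separate collections, so p-values measure the spread between these libraries, which may be technical.

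Oog and Pramel genes belong to the PRAME family, a large family of leucine-rich repeat proteins that expanded by tandem duplication in rodents. Oogenesins were first described as transcripts of growing oocytes and early cleavage embryos, which makes them maternal RNAs, laid down in the egg and degraded as the embryo begins to transcribe its own genome. Other members, among them Pramel4 to Pramel7, are known from pluripotent cells of the embryo. PRAME proteins can act as substrate receptors of the CUL2 ubiquitin ligase, and PRAMEL7 is known to direct UHRF1, a maintenance factor of DNA methylation, to degradation. In the mouse, minor activation of the zygotic genome begins in the zygote and major activation falls in the late 2-cell stage.

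The members were sorted into those higher early, as maternal RNAs are, and those higher late, as zygotic RNAs are. They were classed by late 2-cell WT against early 2-cell G&N embryos, with adjusted p under 0.05 in edgeR's quasi-likelihood test over all 14 libraries. Of the 52 members, 47 passed the filter on low counts, 13 were lower in late WT embryos (early-high members) and 21 were higher (late-high members), where 12% of all genes tested were lower and 14.6% higher. Another 13 were in neither class and 5 (Pramel37, Pramel39, Pramel43, Pramel49 and Pramel50) were too low to test. The classes are a description, since these 4 libraries chose them. Stage, inhibitor, NMN and injection differ together between the 2 groups, so a class cannot be put down to stage alone. With late against early G&N as the defining groups, 10 members were early-high and 21 late-high. Of these, 10 and 19 were in the same class as here. All 4 oogenesins were early-high, with Pramel13, Pramel15, Pramel25, Pramel26, Pramel29, Pramel32, Pramel34, Pramel47 and Pramel51. Oog3 had the smallest change of the 13, -0.815 on the log2 scale (adjusted p = 0.0212, edgeR). DESeq2 called 12 early-high members lower and did not call Oog3, so its class is less firm. Late-high were Pramel1, Pramel3 to Pramel7, Pramel11, Pramel14, Pramel16 to Pramel20, Pramel24, Pramel28, Pramel30, Pramel31, Pramel33, Pramel35, Pramel38 and Pramel13os, a non-coding transcript antisense to Pramel13. Just inside the threshold stood Pramel47 (log2 fold change -3.66, adjusted p = 0.022) of the early-high and Pramel19 (log2 fold change 3.71, adjusted p = 0.0472) of the late-high members. Just outside stood Pramel22 (log2 fold change -3.92, adjusted p = 0.0603), and Pramel40 (log2 fold change 5.51, adjusted p = 0.0629).

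The promoters of the classes were set side by side to see which letters they hold. For the 50 protein-coding members, a window from 250 bases before to 50 after the start of the canonical transcript (GRCm39, GENCODE vM39) was searched on both strands. The letters TAATTG, a core recognised by homeodomain proteins and the preferred element of the oocyte factor NOBOX, stood in 9 of 13 early-high promoters (69.2%), 2 of 20 late-high promoters (10%) and 8.08% of all 21770 coding promoters. The letters TAATCC, the core of OTX and OBOX sites, stood in 1 of 13 early-high promoters (7.69%), 7 of 20 late-high promoters (35%) and 7.72% of all. TATAAA was found in 3 of 13 early-high and 9 of 20 late-high promoters (23.1% and 45.0%) against 13.2% of all, and CCAAT in 38.5% and 75.0% against 39.9%. Neither was particular to the late-high class. Of the 13 unclassed promoters, 10 held TATAAA (76.9%) and 9 held CCAAT (69.2%), and all 4 promoters of untested coding members held both. The TAATTG match of 1 member, Pramel32, overlaps a CCAAT match. For each class, 3 promoters are printed from 150 bases before the start site up to it, 5′ to 3′, with each match to TAATTG or TAATCC, or to its reverse complement, in capitals. They are read from GRCm39 and were chosen, with the levels known, among members whose match falls in this stretch.

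Oog4 (chr4:143176895-143177044, minus strand): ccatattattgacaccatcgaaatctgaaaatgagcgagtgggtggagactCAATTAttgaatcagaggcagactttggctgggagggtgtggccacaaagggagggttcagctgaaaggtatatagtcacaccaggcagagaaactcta

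Pramel25 (chr4:143515772-143515921, plus strand): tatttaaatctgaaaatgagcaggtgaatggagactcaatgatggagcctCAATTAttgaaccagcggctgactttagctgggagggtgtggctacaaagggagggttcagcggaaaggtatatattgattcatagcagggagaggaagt

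Pramel32 (chr4:88552497-88552646, minus strand): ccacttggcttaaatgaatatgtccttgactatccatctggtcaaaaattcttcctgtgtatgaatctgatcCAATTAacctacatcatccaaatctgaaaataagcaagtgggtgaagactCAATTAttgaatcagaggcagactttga

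Pramel5 (chr4:144007037-144007186, minus strand): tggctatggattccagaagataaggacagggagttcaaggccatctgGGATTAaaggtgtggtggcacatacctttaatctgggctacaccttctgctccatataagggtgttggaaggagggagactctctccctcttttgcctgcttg

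Pramel11 (chr4:143626944-143627093, minus strand): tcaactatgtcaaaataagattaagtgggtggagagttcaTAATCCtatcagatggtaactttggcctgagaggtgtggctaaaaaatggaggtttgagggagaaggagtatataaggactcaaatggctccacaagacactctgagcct

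Pramel17 (chr4:101701221-101701370, minus strand): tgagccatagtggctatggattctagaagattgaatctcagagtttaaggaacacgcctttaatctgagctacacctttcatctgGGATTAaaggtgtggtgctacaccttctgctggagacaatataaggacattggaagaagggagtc

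The copies are not independent sequences. Oog4 and Pramel32 share an unbroken run of 32 bases that holds the match, and Pramel5 and Pramel17 share a run of 23 bases with theirs. The windows searched for Pramel6, Pramel7, Oog1 and Oog2 hold neither set of letters. For Pramel6, Pramel7 and Oog2, as for the printed Pramel5, Pramel17 and Pramel32, the canonical start lies inside the annotated gene. Windows at other annotated starts were not searched. The DUX motif was found in 8 of all 21770 promoters (0.0367%), of which 3 are the members Pramel40, Pramel41 and Pramel45. A match is a description of the letters, and no binding was measured.

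Library totals ran from 20350427 to 61275465 counts. The limit that a count of 0 allows, 3 counts, equals 0.049 to 0.147 CPM on these totals without TMM, for counting error only. Levels are CPM on TMM-normalized library sizes, and SE is the standard error of a log2 fold change. The 10 maternal marker transcripts together held 19630 to 26140 CPM in the early and 3530 to 19000 CPM in the late libraries, and 9 late 2-cell markers found held 462 to 821 CPM and 1063 to 3449 CPM. Single genes dominate the early sums, Btg4 at 13040 to 17220 CPM and Tcstv1 at 364 to 637 CPM. In late WT against early G&N, 7 maternal markers were lower and 1, Zp3, was higher by edgeR. Of the late markers, 6 were higher and 1, Tcstv1, was lower. Of 12 cumulus and granulosa markers, Amh and Inhba were at 0 in all 14 libraries and the list summed to at most 33.4 CPM. Others were present: Cyp19a1 reached 22.9 CPM, Tnfaip6 19.2 CPM, Fshr 7.77 CPM and Star 6.34 CPM. Tnfaip6 was higher at the late stage, by 10.15 in G&N and 10.79 in G&N-L on the log2 scale (adjusted p = 0.00689 and 0.00908, edgeR). In bulk libraries, fewer cells with a transcript and less of it per cell cannot be told apart.

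The family was a large share of the embryo's RNA. In early embryos its members took 3.21% and 2.85% of all counts in G&N and 2.58% and 3.17% in G&N-L. In late embryos the share was 1.91% and 2.18% in G&N, 2.90% and 2.28% in G&N-L, 2.35% and 1.79% with Lac-CoA, 1.41% and 1.53% in H3K18R, and 1.18% and 1.10% in WT. WT embryos thus lay lowest, and the late G&N-L range overlapped the early one. Oog3 alone made up 35.2% of the family's counts in early G&N (mean of 2 libraries) and 65.8% in late WT embryos. Without Oog3, the early-high members summed to 26210 and 20160 CPM in early G&N and 2705 and 2037 CPM in late WT. The 21 late-high members together held 16.2 and 17.1 CPM in early G&N and 1239 and 1412 CPM in late WT. The late-high members, though more numerous, were a minor part of the family's RNA.

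**Figure D1:**
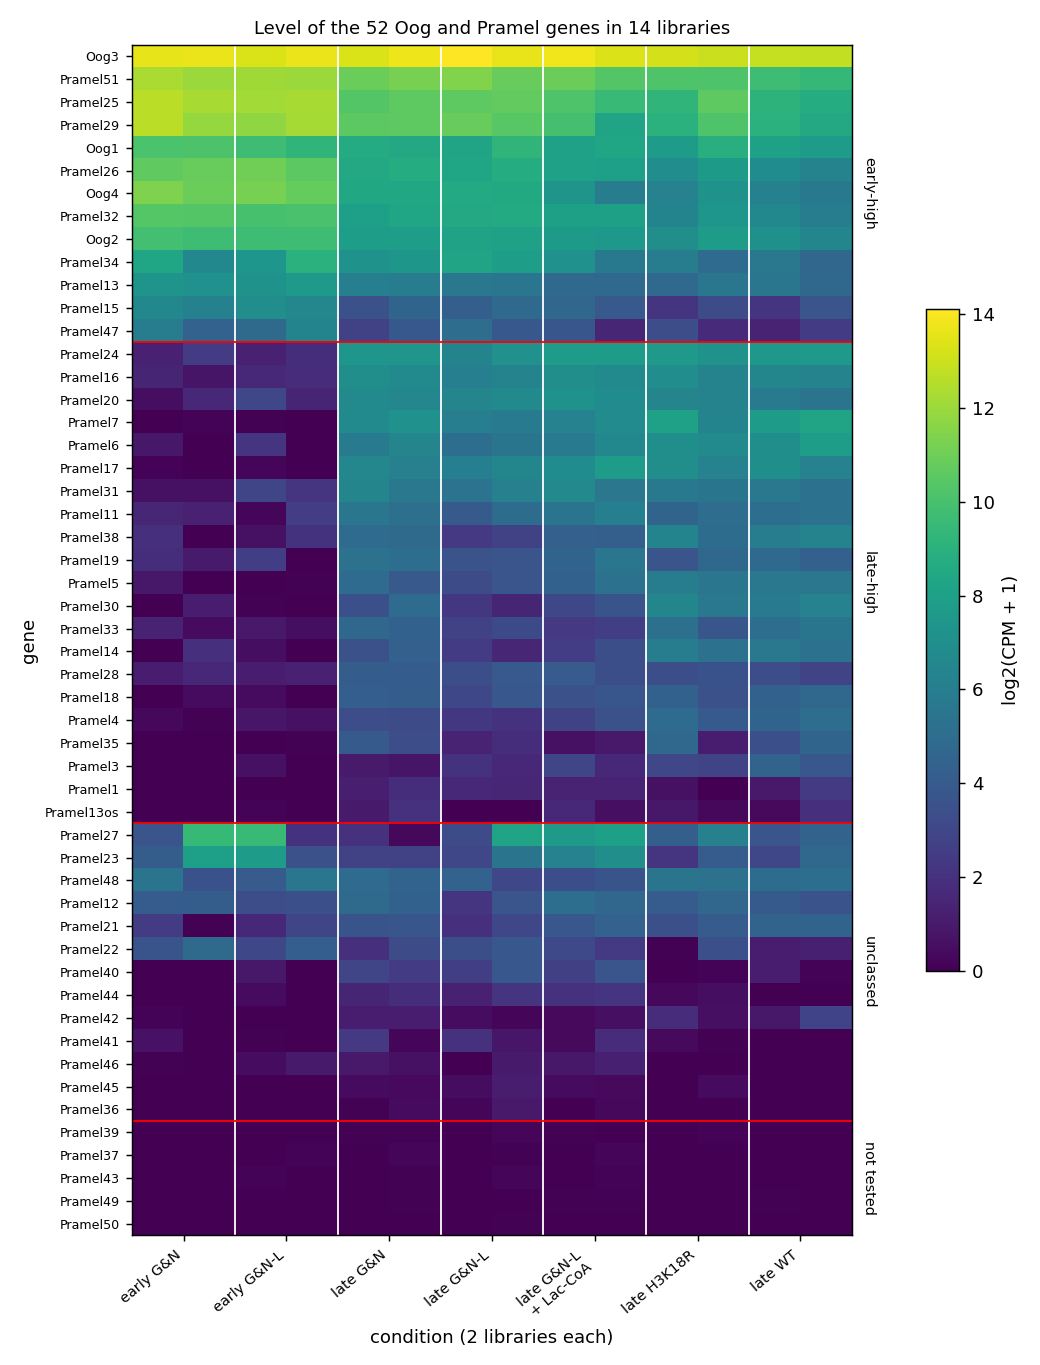
Level of each of the 52 genes as log2(CPM + 1), in colour, in 14 libraries (columns, 2 for each condition), with genes ordered within class by mean level. Oog3 is bright in every column, most other early-high genes dim from the early to the late columns, and late-high genes are dark in the 4 early columns.

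From the early to the late 2-cell stage, most early-high members fell and most late-high members rose in both media. In G&N, 10 members were lower at the late stage, all of them early-high, and 21 were higher, 19 late-high members with Pramel40 and Pramel44, against 3.85% of all 25041 genes tested that were lower and 9.76% that were higher. The early G&N libraries helped to set the classes, so this split is partly fixed by them. The G&N-L libraries did not. There, 8 of the 13 early-high members fell and 13 of the 21 late-high members rose, none moved the other way past the threshold, and none of the unclassed members was called. Of all genes tested, 2.92% were lower and 7.31% higher in this comparison. The median log2 fold change from early to late G&N-L was -1.46 for the early-high and 4.41 for the late-high members, against 0.21 for all genes. Scaled by library totals without TMM, 5 members were lower and 15 higher in place of 8 and 13, and the median of all genes moved from 0.21 to 0.52. Fitted on these 4 libraries alone, 8 were lower and 8 higher.

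Among the oogenesins, Oog4 fell furthest, and Oog3 was not called between stages in either medium. Oog4 (chr4:143163734-143176894, minus strand) stood at 2701 and 1944 CPM in early G&N and 2393 and 1763 CPM in early G&N-L. At the late stage it was at 345 and 342 CPM in G&N, 392.1 and 374 in G&N-L, 154 and 63.2 with Lac-CoA, 75.2 and 142.9 in H3K18R and 72.0 and 50.6 in WT. The early libraries lay above every late one. Its log2 fold change from early to late was -2.76 (SE 0.421, adjusted p = 0.000724) in G&N and -2.44 (SE 0.416, adjusted p = 0.00218) in G&N-L, by edgeR's quasi-likelihood test with Benjamini-Hochberg adjustment, as throughout.

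Oog2 (chr4:143909941-143923504, plus strand) ran at 939 and 834 CPM in early G&N and 852 and 829 in early G&N-L, and at 237 and 242 in late G&N and 274 and 267 in late G&N-L. Replicates lay close together, and the stages did not overlap. The log2 fold change was -1.89 (SE 0.289, adjusted p = 0.000735) in G&N and -1.64 (SE 0.287, adjusted p = 0.00266) in G&N-L. Oog2 was lowest in late WT embryos, at 135 and 87.2 CPM.

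Oog1 lies apart from the others, on chromosome 12 (chr12:87649458-87655620, plus strand). It stood at 1087 and 1159 CPM in early G&N and 861 and 606 in early G&N-L, and at 210.4 to 591 CPM in the 10 late libraries, with a median of 313. The highest late library, G&N-L replicate 2 at 591 CPM, nearly reached the lowest early one. The fall passed the threshold in G&N, -1.52 (SE 0.376, adjusted p = 0.0164), and not in G&N-L, -0.71 (SE 0.37, adjusted p = 0.294). Only 25.2% of the 100-base windows of its exons occur once in the genome, so its counts may include or lose reads of copies.

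Oog3 (chr4:143884127-143889233, minus strand) was the most abundant member in all 7 conditions, also per length. It stood at 12286 and 13366 CPM in early G&N and 10177 and 13285 in early G&N-L. Late levels were 9942 and 13815 CPM in G&N, 17621 and 12836 in G&N-L, 14019 and 10676 with Lac-CoA, 9267 and 7929.8 in H3K18R and 7319.9 and 7261 in WT. Early and late ranges overlapped in the inhibitor media, and the 4 libraries of WT and H3K18R embryos were the lowest of the 14. The log2 fold change from early to late was -0.11 (SE 0.234, adjusted p = 0.843) in G&N and 0.38 (SE 0.235, adjusted p = 0.381) in G&N-L. Per kilobase of exon, Oog3 stood at 6877 CPM in early G&N (mean of 2 libraries), ahead of Pramel25 at 3134, Pramel29 at 2716 and Pramel51 at 1524 CPM per kilobase. In late WT it stood at 3909 CPM per kilobase, and the next member, Pramel25, at 272.

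**Figure D2:**
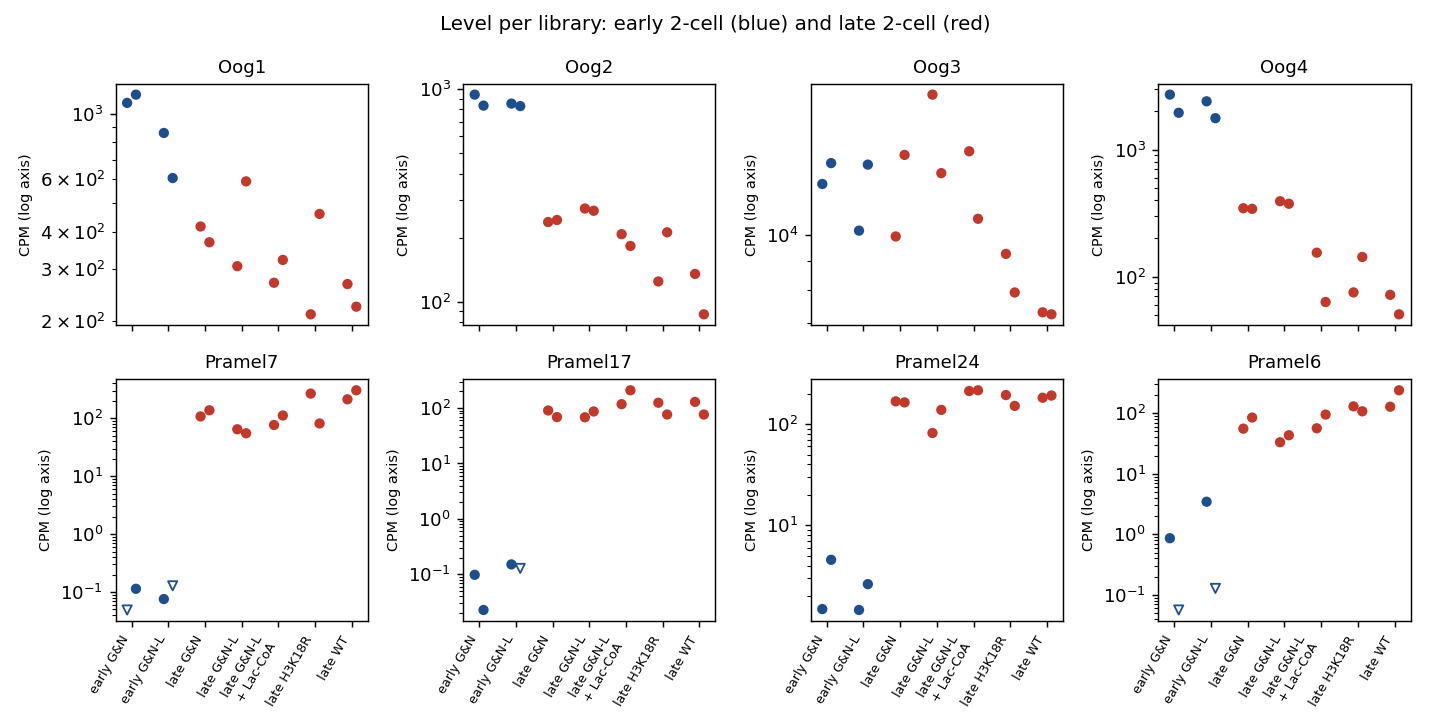
Level per library in CPM on log axes for Oog1 to Oog4 and 4 late-high Pramel genes, with 2 points for each condition, early 2-cell in blue and late 2-cell in red. Open triangles mark libraries at 0, drawn at the limit of 3 counts on library totals without TMM. Oog3 overlaps between stages in the inhibitor media, while Pramel7, Pramel17 and Pramel24 do not overlap between stages.

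Of the 9 early-high Pramel genes, 6 fell in both media. Pramel26 went from 1630.2 and 1842 CPM in early G&N and 2089 and 1505 in early G&N-L to 360.2 and 428 in late G&N and 323 and 428 in late G&N-L, log2 fold changes of -2.14 and -2.26 (adjusted p = 0.000471 and 0.000502, edgeR). The 10 late libraries, 77.2 to 428 CPM, all lay below the early ones. Pramel25, the second most abundant member by its mean in both early groups, at 4459 to 6385 CPM in the 4 early libraries, ran at 429.9 to 1673 CPM in the late ones. Its log2 fold change was -1.99 in G&N and -1.54 in G&N-L (adjusted p = 0.00327 and 0.0181, edgeR). Pramel32, a single gene outside the main cluster of chromosome 4 with wholly unique exon sequence, ran from 1025 to 1341 to between 59.4 and 393 CPM. Pramel13 ran from 139 to 195 to between 24.7 and 67.3 CPM, Pramel15 from 73.7 to 121 to between 3.52 and 27.2 CPM, and Pramel51 of chromosome 12 from 4056 to 5006 to between 685 and 2728 CPM. In each of these 6 genes every early library lay above every late one. The early G&N and late WT libraries set their class, and how many of all genes separate in this way was not counted. Of the 6 genes, Pramel51 changed least, by -1.09 in G&N and -0.90 in G&N-L on the log2 scale (adjusted p = 0.0138 and 0.0449, edgeR). Pramel29 (3518 to 6486 CPM early, 296 to 1842 CPM late) fell in G&N, -1.74 (SE 0.512, adjusted p = 0.0391), and missed the threshold in G&N-L, -1.34 (SE 0.506, adjusted p = 0.13). Pramel34 and Pramel47, both in the chromosome 5 cluster, passed in neither medium. Pramel34 varied from 96.1 to 522 CPM among the early libraries and from 24.5 to 298 CPM among the late ones, with replicates of early G&N at 325 and 96.1 CPM.

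The late-high members came from near 0. Pramel7 (chr2:87319431-87327437, minus strand), the CUL2 receptor of UHRF1, stood at 0 and 0.114 CPM in early G&N and 0.0756 and 0 in early G&N-L. At the late stage it reached 107 and 137 CPM in G&N, 64.5 and 55.0 in G&N-L, 76.4 and 112 with Lac-CoA, 266 and 81.2 in H3K18R and 212 and 304 in WT. It rose in both media, by 11.07 (SE 0.97, adjusted p = 1.61e-05) and 10.20 (SE 0.985, adjusted p = 4.29e-05) on the log2 scale, by edgeR. In G&N-L the ratio of summed counts was 1230-fold, for 4587 late and 3 early counts scaled to library size. The 95% exact interval of this ratio, 420 to 5960, covers counting error only and not the spread between libraries. The neighbouring Pramel6 ran at 0 to 3.45 CPM early and 33.1 to 239 CPM late. Its rise was 7.30 (SE 1.5, adjusted p = 0.00547) in G&N and 4.41 (SE 1.3, adjusted p = 0.0496) in G&N-L, the latter not past the threshold by DESeq2, with the replicate block or in the fit of its own 4 libraries.

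Pramel17, in a cluster of 3 linked genes on chromosome 4, went from at most 0.151 CPM early to 68.1 to 209 CPM late, with a log2 fold change of 10.24 in G&N and 9.66 in G&N-L (adjusted p = 9.44e-06 and 1.96e-05, edgeR). Its neighbours Pramel18 and Pramel19 reached 7.31 to 25.1 and 11.1 to 45.1 CPM. Both rose in G&N, while in G&N-L Pramel18 rose (adjusted p = 0.0169) and Pramel19 did not pass (adjusted p = 0.333), by edgeR.

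In the main cluster of chromosome 4, Pramel24 (1.46 to 4.57 CPM early, 81.5 to 215 CPM late), Pramel16 (0.751 to 2.49 and 66.6 to 123 CPM), Pramel20 (0.451 to 7.16 and 41.7 to 148 CPM) and Pramel31 (0.53 to 6.73 and 37.2 to 97.3 CPM) rose in both media. None of the 4 overlapped between stages, and how many of all genes separate in this way was not counted. Pramel16 had the smallest standard errors, with log2 fold changes of 6.46 (SE 0.477, adjusted p = 5.76e-06) in G&N and 4.98 (SE 0.446, adjusted p = 2.84e-05) in G&N-L. Pramel5 ran from 0 to 0.902 to between 8.63 and 60.99 CPM. In G&N-L the ratio of its counts was 634-fold, for 789 late and 1 early counts scaled to library size. The 95% exact interval, 114 to 25100, again covers counting error only. Pramel28 (1.14 to 2.09 CPM early, 6.51 to 16.8 CPM late) also rose in both media. Pramel30 (0 to 1.07 CPM early, 1.77 to 86.8 CPM late) did so with a wide spread among late conditions, from 3.80 and 1.77 CPM in G&N-L to 57.4 and 74.0 CPM in WT. Pramel4 (0.0455 to 0.806 and 3.26 to 31.5 CPM), Pramel11 (0.176 to 4.99 and 14.7 to 67.0 CPM) and Pramel3 of the X chromosome (0 to 0.529 and 0.758 to 21.8 CPM) rose in G&N and missed the threshold in G&N-L. Pramel4 has unique sequence in only 9.6% of its exon windows. Pramel14 (0 to 2.84 CPM early, 1.85 to 61.5 CPM late) passed in neither. Pramel1, at 0 in both early G&N libraries, was at 1.31 and 2.57 CPM in late G&N, at least 63.2-fold higher against 3 counts over the early group. Its call was lost in 5 alternatives, among them the replicate block and the fit of its own 4 libraries. Pramel13os stayed at or under 2.98 CPM, and whether counting used the strand is not given, so its reads and those of Pramel13 cannot be told apart.

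Pramel33 (0.318 to 1.57 CPM early, 4.05 to 44.1 CPM late) and Pramel35 (0 to 0.0453 and 0.529 to 25.8 CPM) of chromosome 5 rose in both media, and Pramel38 (0 to 3.13 and 4.13 to 81.3 CPM) in G&N. Of the 18 members in that cluster, every one has under 35% unique exon windows, and the counting of reads with several positions is not given, so the split of counts between these copies is uncertain. Of the unclassed members there, Pramel40 rose in G&N from 0.0196 and 0 to 6.62 and 4.52 CPM and Pramel44, at 0 in early G&N, reached 1.75 and 2.55 CPM.

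To ask whether the late-high members needed lactate, late G&N-L was compared with late G&N embryos, none of which set the classes. The late-high members were lower without lactate in 20 of 21 genes, with a median log2 fold change of -0.88, but none passed the test. The median of the 13 early-high members was 0.18 and that of all genes -0.01. By edgeR's quasi-likelihood test 0 members were called, where 0.0399% of all genes were lower and 0.00399% higher. An unadjusted p under 0.05 was reached by 5 lower members and 1 higher member of 47, and by 7.22% of all genes in either direction. DESeq2 called 2 members (Pramel13os lower, Pramel27 higher) and 1.75% of all genes. The summed level of the late-high members was 518 and 687 CPM in G&N-L and 982 and 933 CPM in G&N, and the sums were not tested. Pramel7 stood at 64.5 and 55.0 CPM in G&N-L against 107 and 137 in G&N, with log2 fold change -1.03, SE 0.593, adjusted p = 0.739. Pramel4 differed by -1.33 (SE 0.683, adjusted p = 0.73), Pramel5 by -1.09 (SE 0.948, adjusted p = 0.834) and Pramel6 by -0.88 (SE 1.13, adjusted p = 0.965). For none of these 4 genes did the difference pass the test. Wider were the differences of Pramel30 at 3.80 and 1.77 against 9.74 and 29.6 CPM, Pramel35 at 1.53 and 2.61 against 15.2 and 8.91 CPM, Pramel38 at 4.13 and 5.82 against 29.2 and 28.5 CPM and Pramel14 at 4.63 and 1.85 against 10.4 and 18.8 CPM. Their adjusted p was 0.583, 0.685, 0.704 and 0.739 by edgeR. Pramel17, Pramel20 and Pramel31 were near 0, at -0.04, -0.04 and -0.26 on the log2 scale. Oog3 stood at 17621 and 12836 CPM in G&N-L and 9942 and 13815 in G&N, a difference of 0.36 (SE 0.235, adjusted p = 0.74). Late 2-cell markers other than the family did not run with the late-high members: they summed to 2440 to 2874 CPM in G&N-L and 2036 to 2140 CPM in G&N, with 0 of 9 called.

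Lac-CoA was injected to ask whether it stands in for lactate. No source used here describes the G&N-L or G&N embryos as injected, so Lac-CoA and the injection cannot be told apart. Against G&N-L, the late-high members had a median log2 fold change of 0.96 and 18 of 21 were higher, and all 13 early-high members were lower, with a median of -0.60. The median of all genes was 0. This comparison shares the G&N-L libraries with the previous one, so the opposite signs are not independent. By edgeR 0 members were called, as for all genes (0% lower and 0% higher). At an unadjusted p under 0.05 stood 4 lower and 3 higher members, with 8.35% of all genes in either direction. DESeq2 called 3 members (Oog4 lower, Pramel12 and Pramel13os higher) and 2.50% of all genes. Summed, the late-high members stood at 992 and 1124 CPM with Lac-CoA, above both G&N-L libraries. Pramel7 was at 76.4 and 112 CPM (log2 fold change 0.65, SE 0.589, adjusted p = 0.78, against G&N-L), and Pramel5 at 20.2 and 37.0 CPM (log2 fold change 1.48, SE 0.956, adjusted p = 0.651). Pramel24, at 212 and 215 CPM, was above the 81.5 and 138 CPM of G&N-L, by 0.96 (SE 0.441, adjusted p = 0.596). Oog4 had the smallest p of the members, at 154 and 63.2 CPM against 392.1 and 374 in G&N-L, with log2 fold change -1.82, SE 0.407, adjusted p = 0.234. Without Lac-CoA replicate 1, Oog4 and Pramel29 were called lower, with 42 of 28569 genes called in all. Maternal markers outside the family summed to 9762 to 14050 CPM with Lac-CoA and 16600 to 19000 CPM in G&N-L, with 0 of 10 called, and their part in the early-high median was not tested. Against late G&N embryos, 0 members were called by edgeR (all genes: 0% lower and 0% higher) and 2 by DESeq2 (Oog4 lower, Pramel27 higher), which called 0.883% of all genes. At an unadjusted p under 0.05 stood 5 lower and 2 higher members, with 5.26% of all genes, and the medians were -0.42 for early-high and -0.14 for late-high members.

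**Figure D3:**
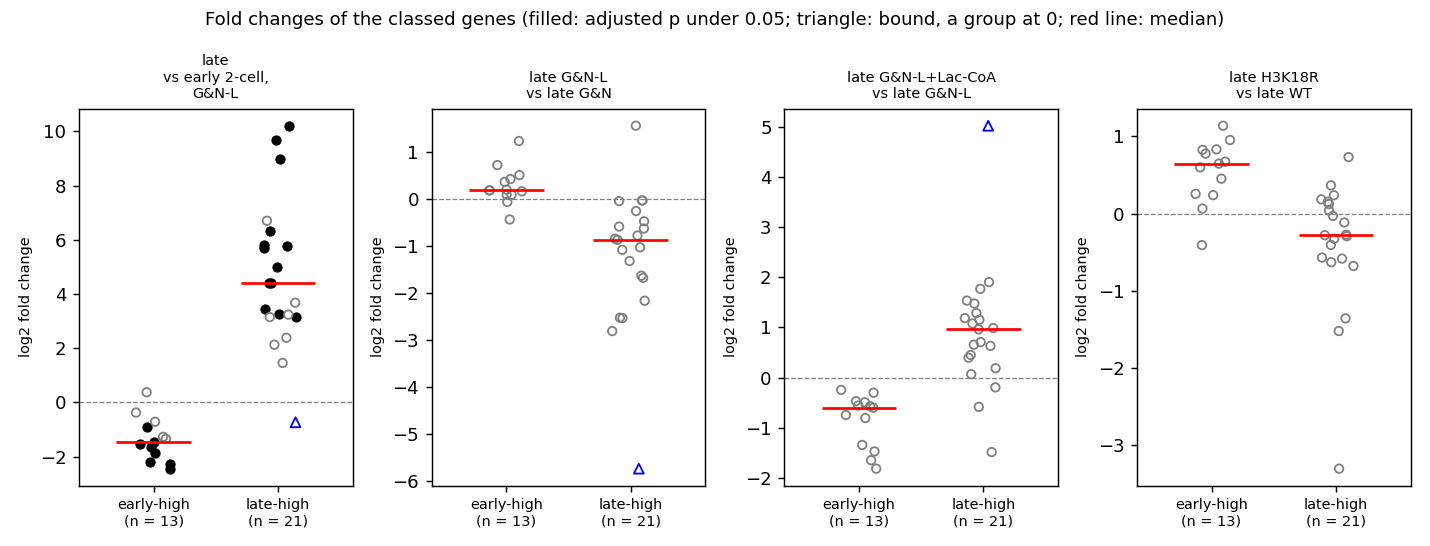
Fitted log2 fold change of each early-high (13) and late-high (21) gene in 4 comparisons, with filled points for adjusted p under 0.05, blue triangles for bounds where a group is at 0, and red lines at the medians; the vertical scales differ between panels. Points are filled only between stages, where the medians are -1.46 and 4.41.

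Replacing lysine 18 of H3 tested whether this residue matters for these genes. No member was called between H3K18R and WT late embryos by edgeR (0 lower and 0 higher, against 0% lower and 0.0359% higher of all genes) or by DESeq2, which called 1.59% of all genes. At an unadjusted p under 0.05 stood 0 lower and 4 higher members, with 7.24% of all genes in either direction. The 13 early-high members had a median log2 fold change of 0.65, 12 of them above 0, and the late-high members one of -0.28. The WT libraries set the classes, so these medians are partly fixed by that choice. Without H3K18R replicate 2 the early-high median was 0.29 and the late-high median turned to 0.12. The H3K18R libraries differed from each other: replicate 1 was above replicate 2 in 18 of 21 late-high members and in 3 of 13 early-high members (Oog3, Pramel34 and Pramel47). Pramel7 was at 266 and 81.2 CPM, Pramel35 at 25.8 and 1.14 CPM and Pramel38 at 81.3 and 30.5 CPM. Pramel25 was at 606 and 1564 CPM and Oog4 at 75.2 and 142.9 CPM. The summed maternal markers were at 3949 and 8126 CPM in these libraries against 3530 and 3653 CPM in WT, and their part in the result was not tested. Pramel25 had the smallest p, with a log2 difference of 1.14 (SE 0.37, adjusted p = 0.515).

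Late WT embryos were compared with late G&N embryos to see the family without inhibitor and NMN. Of the members, 6 were lower in WT (Oog2, Oog4, Pramel25, Pramel26, Pramel32 and Pramel51, all early-high) and 0 were higher by edgeR, against 3.70% lower and 1.41% higher of all genes. DESeq2 called 12 members, 10 lower and 2 higher, and 13.8% of all genes. An unadjusted p under 0.05 was reached by 13 lower and 2 higher members and by 18.8% of all genes. Oog4 stood at 72.0 and 50.6 CPM in WT and 345 and 342 in G&N, with log2 fold change -2.49, SE 0.417, adjusted p = 0.00859. Pramel26 stood at 114 and 77.2 against 360.2 and 428 CPM, or -2.05 (SE 0.308, adjusted p = 0.00572), and Pramel32 at 95.3 and 59.4 against 251 and 319.8 CPM, or -1.88 (SE 0.33, adjusted p = 0.00994). Pramel51 was at 844 and 685 against 1926 and 2346 CPM (log2 fold change -1.48, SE 0.264, adjusted p = 0.0107), Pramel25 at 556 and 429.9 against 1305 and 1559 CPM (log2 fold change -1.54, SE 0.373, adjusted p = 0.0338), and Oog2 at 135 and 87.2 against 237 and 242 CPM (log2 fold change -1.11, SE 0.284, adjusted p = 0.042). The libraries of the 2 groups did not overlap in any of these 6 genes, and how many of all genes separate in this way was not counted. WT libraries set the early-high class by their low values, so the count is partly fixed by that choice. Of the 10 maternal markers, 4 were lower in WT as well, and the list summed to 3530 to 3653 CPM in WT and 12910 to 14870 CPM in G&N. Inhibitor, NMN and injection differ together between these groups and cannot be told apart. Pramel3 was the widest difference in the other direction, at 21.8 and 12.98 CPM in WT and 1.04 and 0.758 in G&N (log2 fold change 4.27, SE 1.33, adjusted p = 0.096).

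In early embryos, G&N-L and G&N were compared as the stage before major activation. By edgeR 0 members were called, against 0.0120% lower and 0.00399% higher of all genes. At an unadjusted p under 0.05 stood 2 lower and 6 higher members, with 4.59% of all genes. DESeq2 called 2 members (Pramel31 and Pramel3, both higher) and 1.08% of all genes. The early-high members had a median of -0.10. Pramel31 stood at 6.73 and 3.40 CPM in G&N-L and 0.53 and 0.546 in G&N (log2 fold change 3.23, SE 0.527, adjusted p = 0.0924). With any 1 of the 4 libraries left out, 2 to 5 members were called, Pramel31 each time, while the calls over all genes rose as well, from 4 to between 72 and 183. A difference of the lactate effect between stages was called for 0 members by edgeR, against 0.00399% of all genes lower and 0% higher. At an unadjusted p under 0.05 stood 6 lower and 1 higher members, with 6.19% of all genes, and DESeq2 called 3 members (Pramel4, Pramel31 and Pramel13os) and 1.10% of all genes.

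Pramel23 and Pramel27 followed neither stage nor medium. Both lie in the main cluster of chromosome 4, on either side of Pramel24 to Pramel26. Pramel27 was at 12.1 and 705 CPM in the 2 early G&N libraries and at 727 and 3.26 CPM in the 2 early G&N-L libraries. In late embryos it was at 3.01 and 0.253 CPM in G&N, 8.45 and 304 in G&N-L, 198 and 253 with Lac-CoA, 17.97 and 68.9 in H3K18R and 12.3 and 21.1 in WT. Its replicates differed 58.5-fold in early G&N, 223-fold in early G&N-L and 35.9-fold in late G&N-L. Of its exon windows 74.6% are unique, and those of Pramel23 all are. Pramel23 was at 17.2 and 246 CPM in early G&N and 212 and 10.3 in early G&N-L. Its late levels were 5.61 and 5.56 CPM in G&N, 7.02 and 42.2 in G&N-L, 74.6 and 127 with Lac-CoA, 3.45 and 16.4 in H3K18R and 6.91 and 26.3 in WT. The same libraries were high for both genes: early G&N replicate 2, early G&N-L replicate 1, late G&N-L replicate 2 and both with Lac-CoA. Where the mean of a member was at least 10 CPM in the same condition, the only other difference of more than 8-fold between replicates was that of Pramel35 in H3K18R. At lower means replicates also lay far apart. Examples are Pramel22 in H3K18R (0.0479 and 9.77 CPM), Pramel21 in early G&N (4.75 and 0.0682 CPM) and Pramel11 in early G&N-L (0.176 and 4.99 CPM). Replicates of Pramel24, which lies between them, were closer, at 167 and 163 CPM in late G&N and 81.5 and 138 in late G&N-L. Neither Pramel23 nor Pramel27 was called by edgeR in any comparison. DESeq2 called both lower from early to late G&N, and Pramel27 higher in late G&N-L and with Lac-CoA than in late G&N.

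**Figure D4:**
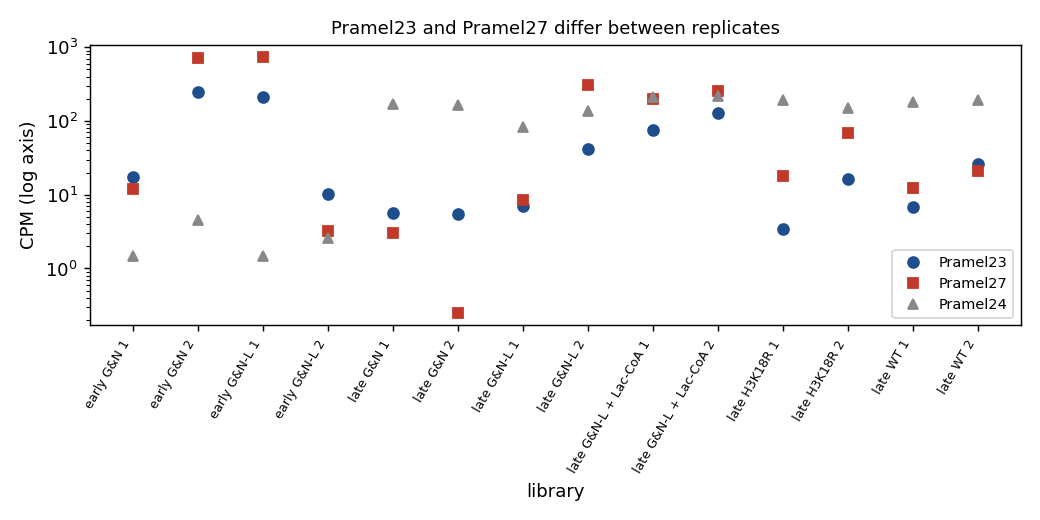
Level in CPM on a log axis of Pramel23, Pramel27 and, for comparison, Pramel24 in each of the 14 libraries. Pramel27 stands at 705 and 727 CPM in 1 early library of each medium and at 12.1 and 3.26 CPM in the other, and Pramel23 follows it, while Pramel24 follows the stage.

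The remaining unclassed members were low or overlapped between stages. In the class comparison DESeq2 called 1 unclassed member lower, Pramel22, and 3 higher, Pramel21, Pramel40 and Pramel42. Pramel12 stood at 8.97 to 16.6 CPM early and 3.46 to 33.3 CPM late, lowest in late G&N-L at 3.46 and 12.4 CPM and higher with Lac-CoA at 33.3 and 24.6 CPM (log2 fold change 1.87, SE 0.585, adjusted p = 0.395). Pramel21 ran at 0.0682 to 6.75 and 2.91 to 22.3 CPM, Pramel22 at 7.31 to 28.0 and 0.0479 to 13.3 CPM, and Pramel48 at 10.96 to 45.6 and 7.05 to 41.8 CPM in early and late libraries, with overlapping ranges. The other 7 tested members of neither class, all in the chromosome 5 cluster, had means under 10 CPM in every condition. By position, both members on chromosome 2 and all 3 in the small cluster of chromosome 4 were late-high, and both on chromosome 12 were early-high. The main cluster of chromosome 4 held 8 early-high, 12 late-high and 5 unclassed members side by side, Oog2, Oog3 and Oog4 among them.

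Genes of CUL2 ligases were mostly present at both stages. The list holds subunits of the ligase and also its other substrate receptors, so its counts do not describe partners of PRAME proteins alone. Of the 19 genes listed, 2 fell and 5 rose from early to late G&N, and 3 fell and 3 rose in G&N-L. In G&N the genes that rose were Elob and the receptors Vhl, Zyg11b, Fem1b and Fem1c. Those that fell were Rbx1 and the receptor Lrr1. Elob, the elongin B subunit, rose from 5.24 and 2.00 CPM in early to 144 and 199 CPM in late G&N (log2 fold change 5.56, SE 0.577, adjusted p = 4.74e-05). Rbx1, the RING subunit, fell from 1105 and 1601 to 634 and 696 CPM (log2 fold change -1.02, SE 0.246, adjusted p = 0.0138). Cul2, the scaffold, stood at 36.2 and 51.6 CPM in early and 33.2 and 41.7 CPM in late G&N. Eloc, the elongin C subunit, stood at 812 and 589.8 CPM and 757 and 992 CPM, and neither was called. Uhrf1 stood at 133 and 144 CPM in early G&N, 121 and 117 in late G&N and 49.9 and 18.6 in late WT embryos, lower in WT than in late G&N (log2 fold change -1.80, SE 0.393, adjusted p = 0.0218). Of the 6 genes of Uhrf1 and DNA methylation, 1 fell in each medium between stages and 2 were lower in WT than in G&N. No gene of either list was called between late G&N-L and G&N, or between H3K18R and WT, by edgeR. Of the other PRAME genes listed, Pramex1 was at most 8.04 CPM and Pramex2 was at 0 in every library.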

How the data were processed

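Amplified cDNA of pooled 2-cell embryos was sequenced by the study in 14 libraries. Per the labels and the submitters' processing notes, reads were checked with FastQC, trimmed with Trim Galore, aligned to mm39 with HISAT2 and counted per gene with featureCounts. The values deposited by the authors are raw gene counts, not normalized, in 1 table of 56923 genes, and 0 of its columns were left unused. Whether the counting used strand, and how it treated reads with several positions, is not given in the sources used here.

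Genes were filtered with filterByExpr (minimum count 10), which left 25041, and fitted together over the 7 groups with edgeR 4.0.16 in R 4.3.3 (TMM, quasi-likelihood test, prior count 0.125, 7 residual degrees of freedom). P-values were adjusted by the Benjamini-Hochberg method over all genes tested, with a threshold of 0.05. The smallest p that an exact 2-sided permutation test allows for 2 libraries against 2 is 0.333, so no such test was used. The fit was checked on simulated data. Alternatives were DESeq2 1.42.0, other scalings, no filter, fits of each comparison's own libraries, a replicate block and leaving out each library. A chi-square of counts over its degrees of freedom was 47.8 to 195 between replicates, so replicates differed by more than sampling noise. Members with a mean of at least 10 CPM in a condition were named, with those called. The members, classes, gene lists and tests were chosen with earlier results of these data known. Uniqueness of sequence was computed from 100-base exon windows in GRCm39.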

Additional observations from a re-analysis of the deposited data

How the results depend on the processing

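Of 696 values of called members under alternatives, 637 kept their direction and stayed past the threshold, 59 kept the direction and lost it, and 0 reversed. Of the 31 members called from early to late G&N, 17 were called in every alternative, and of the 21 in G&N-L, 12. Leaving out 1 library at a time gave 27 to 28 and 19 to 22 calls, 0 each time between late G&N-L and G&N, 2 to 5 between early G&N-L and G&N, 0 to 2 for Lac-CoA against G&N-L and against G&N, 0 to 1 between H3K18R and WT (Pramel25, without H3K18R replicate 1), 4 to 8 between WT and G&N, and 0 to 4 for the interaction of stage and lactate (4 without early G&N replicate 1). With no filter on low counts, 4 members were called between late G&N-L and G&N, 5 between early G&N-L and G&N, 4 in each Lac-CoA comparison, 3 between H3K18R and WT, 14 between WT and G&N (9 lower, 5 higher) and 5 for the interaction. Of 35149 genes, that setting called 432, 325, 425 and 121 (Lac-CoA against G&N-L and G&N), 363, 2426 and 353, so calls rose over all genes too. DESeq2 called 2, 2, 3 (against G&N-L), 2 (against G&N), 0, 12 and 3 in the same order. The cause of these differences was not tested. Scaled by library totals, 7 members were lower and 22 higher from early to late G&N in place of 10 and 21, with the median of all genes at 0.45 in place of 0.14. The classes held 30 to 34 members with 1 library left out, against 34.

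Over all genes tested, libraries with the same replicate number did not deviate together (correlations of their deviations from the group means between -0.044 and 0.036). Whether they shared a collection or a batch is not given. With that number as a replicate block, 28 members were called from early to late G&N, 21 in G&N-L, 5 between WT and G&N and 0 in the other comparisons, and the classes held 32.

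Early levels of late-high members at 0 are limits of 3 counts. On library totals without TMM these equal 0.049 to 0.128 CPM in the early libraries.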
